A study of Mus with 8 samples.

Results

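The sites bound by C/EBPβ in control 3T3-L1 cells before and 4 h after adipogenic induction were compared peak by peak. The 2 peak lists held 14363 peaks, of 42729 in the 4 lists of the series. The day −2 list held 838 of them and the 4 h list 13525. A day −2 peak and a 4 h peak that shared at least 1 bp were taken as the same site. Such a day −2 peak was called kept, a day −2 peak with no partner was called lost, and a 4 h peak with no partner was called gained.

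3T3-L1 is a mouse preadipocyte line that turns into adipocytes when hormones are added after confluence. All control (C) cells, at both times, had been infected with a lentivirus carrying a scrambled hairpin. Day −2 cells had received no inducer. The 4 h cells had been placed in insulin (1 µg/ml), dexamethasone (1 µM) and the phosphodiesterase inhibitor IBMX (0.5 mM) with 10% FBS. By the published methods, the culture medium before induction held 10% BCS, and the inducers were added after confluence. Day −2 and 4 h cells thus also differed in time in culture and in serum. These differences cannot be told apart from the inducers. Chromatin was precipitated with the C19 antibody against C/EBPβ (sc-150), and 1 ChIP library was set against 1 input library at each time. The same line with a hairpin against Prep1, a homeodomain transcription factor (P cells), was measured at the same times. It is used below mainly as a second place to look up the C sites. The same comparison within P cells is set beside that of C cells at the end. There were no replicate libraries, so no test between day −2 and 4 h was possible. The intervals below are at the 95% level. Those of shares and ratios cover counting error only, and those of medians cover the spread over sites within these libraries. The spread between cultures is unknown. A change in C/EBPβ occupancy and a change in the efficiency of the precipitation cannot be told apart in these lists. All peaks came from 1 cell line, so they do not describe adipose tissue.

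C/EBPβ is a basic leucine zipper transcription factor that binds DNA as a dimer. In preadipocytes it is among the earliest factors to be induced and modified after hormone addition. Dexamethasone acts through the glucocorticoid receptor, IBMX raises cAMP and insulin acts through its receptor. C/EBPβ is known for turning on Pparγ and C/EBPα, which carry the later steps of fat cell formation.

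Depth was nearly equal between the libraries, at 7.82 M reads for day −2 and 7.84 M for 4 h as implied by the background of the peak caller. The fragment length used in peak calling was not equal. It was 215 bp at day −2 and 164 bp at 4 h, and it sets the narrowest peak a list can hold. Peaks had a median width of 259 bp at day −2 and 233 bp at 4 h. Strength is given by 2 deposited values per peak. Fold enrichment is the number of ChIP fragments over the summit divided by the local background, with 1 added to both. The −log10 p is the significance of that excess within its own library. The fragments and the background behind each value were recovered from the 2 values together.

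The first question was how much of the day −2 list was found again after induction. Of 838 day −2 peaks, 791 overlapped a 4 h peak (94.4%, 92.6 to 95.8), and 47 did not (5.61%, 4.24 to 7.38). At 4 h these sites were a small share of the list, since 791 of 13525 peaks (5.85%, 5.47 to 6.26) had a day −2 partner and 12734 (94.2%) had none. Pairing was almost always one peak to one peak, with 788 such pairs among 792 overlaps and 13571 separate sites over both lists. One day −2 peak, on chromosome 2 from 125144137 to 125144697, met 2 separate peaks at 4 h. One 4 h peak, on chromosome 13 from 52917618 to 52918459, covered 2 day −2 peaks whose fold enrichments were 10.5 and 8.51, and its own was 45.5. The kept share and the number lost depend on the rule and on the unequal lengths of the lists. A reciprocal overlap of 50% gave 113 lost peaks, and 4 h peaks at least as wide as the narrowest day −2 peak gave 114. With only the strongest 838 peaks of the 4 h list, 34.8% of day −2 peaks were kept and 546 were lost. Under the 1 bp rule, the kept peak with the least overlap shared 39 bp with its partner, the gained peak with the smallest gap lay 123 bp from a day −2 peak, and the lost peak with the smallest gap lay 286 bp from a 4 h peak.

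Whether a day −2 site was kept went with its strength before induction. In the weakest class, with a −log10 p of 5 to 8, 20 of 33 peaks (60.6%, 43.7 to 75.3) were kept. In the class from 8 to 10 the share was 86.0% (74 of 86), and from 10 to 15 it was 95.8% (294 of 307). All 90 peaks that reached a −log10 p of 30 were kept. The converse share, that of 4 h peaks with a day −2 partner, was low over most of the strength range and rose steeply at its top. It was 0.174% (1 of 574) for a −log10 p of 5 to 8, 5.57% (139 of 2495) from 20 to 30, 24.2% (158 of 652) from 50 to 75 and 57.8% (63 of 109) at 100 or more. Among the 50 strongest 4 h peaks, 37 stood at a day −2 site, among the 100 strongest 59 did, and among the 838 strongest 291 did (34.7%, 31.6 to 38.0). The sites bound before induction were thus found mostly among the strong sites after it.

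**Figure D1:**
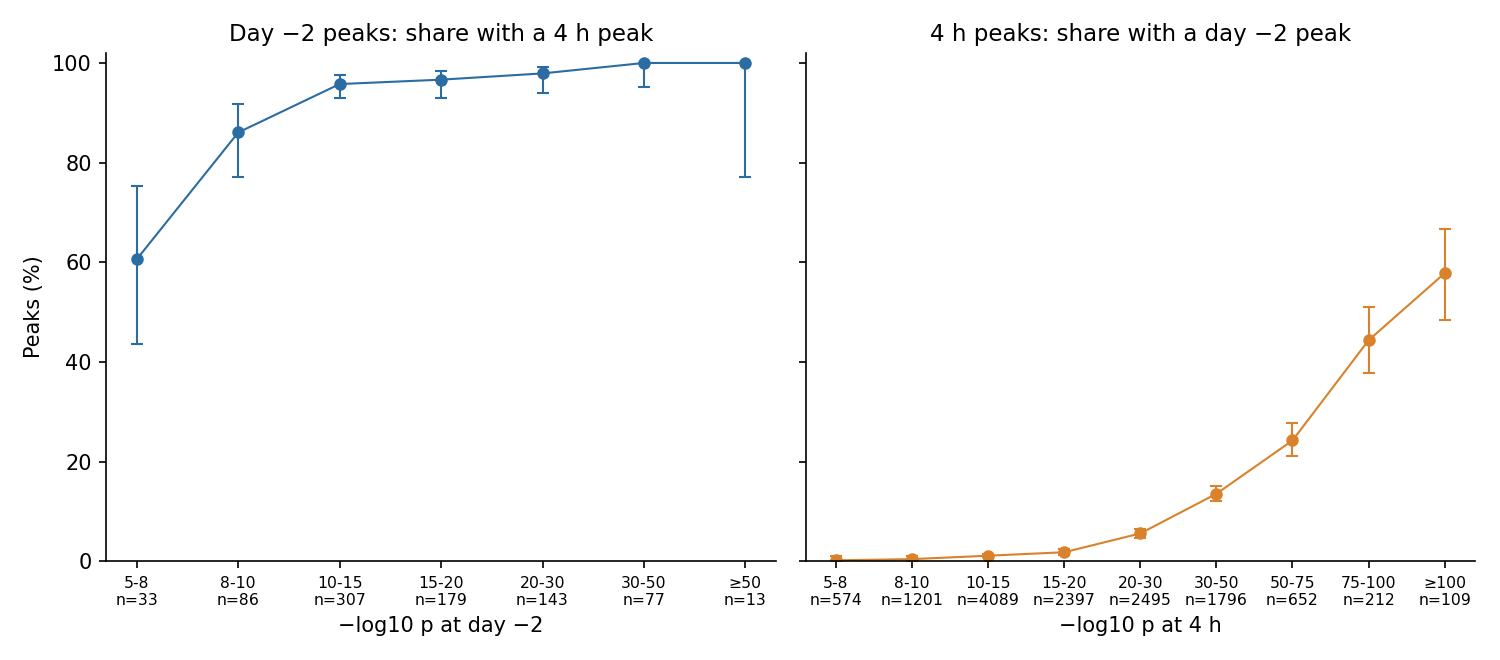
Share of day −2 peaks that overlap a 4 h peak (left) and of 4 h peaks that overlap a day −2 peak (right), in percent, by class of −log10 p, with the number of peaks under each class and 95% Wilson intervals as bars. The left share goes from 60.6% in the weakest class to 100% from 30 upward, and the right share from 0.174% to 57.8%.

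The growth of the list was not even over strength either. At the calling threshold the list lengths stood in a ratio of 16.1, 4 h over day −2 (15.1 to 17.3). At a threshold of 15 in both lists the ratio was 18.6 (16.8 to 20.6), from 412 and 7661 peaks. At 30 the ratio was 30.8 (24.9 to 38.4), from 90 and 2769 peaks, and at 50 it was 74.8 (43.6 to 141), from 13 and 973 peaks. The ratio of list lengths thus climbed with the threshold, although the last value rests on few day −2 peaks.

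The next question was how the strength of a kept site changed. Most kept sites were more enriched after induction, by about 2-fold at the median. Fold enrichment had a median of 8.01 at day −2 and 17.7 at 4 h, and −log10 p a median of 15.3 and 42.1. The log2 ratio of fold enrichment, 4 h over day −2, had a median of 1.07 (1.01 to 1.14) over the 791 pairs, quartiles of 0.62 and 1.51, and a range from −0.93 to 3.00. It was above 0 in 742 pairs and below 0 in 49. A rise of at least 2-fold was seen in 430 pairs (54.4%, 50.9 to 57.8) and of at least 4-fold in 76 (9.61%). No pair was lower by 2-fold or more (0%). A pair needs a called peak at 4 h, so a site that fell far enough is counted as lost and does not enter these ratios, and the pairing rule limits the falls that can be seen.

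ChIP fragments rose together with the ratio. The median number of fragments over the summit was 18 at day −2 and 36 at 4 h, and the log2 ratio had a median of 0.93 (0.87 to 0.96). Fragments were more numerous at 4 h in 734 pairs and fewer in 46. The local background, in units of each library's own genome background, had a median of 1.96 at day −2 and 2.09 at 4 h, and the median log2 ratio of the pairs was 0.02 (−0.01 to 0.10). In fragments the background was lower at 4 h, with a median log2 ratio of −0.37, since the fragment length sets how many fragments lie over each base. Background medians were 1.22 fragments at day −2 and 0.995 at 4 h. A background multiple at a single site below can therefore rest on few fragments. The part of the fragment length in the summit counts was not tested.

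Single kept sites spread widely around this median. The rank order of kept sites was only partly carried over, with a Spearman correlation across the 791 pairs of 0.34 for fold enrichment, 0.46 for −log10 p and 0.53 for fragments. These are descriptions over sites of 1 library pair, which share depth and sequence at each site. The median kept site ranked 1415 of 13525 at 4 h by −log10 p. Ordered by day −2 −log10 p, the weakest of 4 equal groups of kept sites had a median log2 ratio of 1.19 (1.11 to 1.28) and the strongest group 0.89 (0.76 to 0.96). That order uses the same day −2 values as the ratio itself. Ordered by the mean of both times, the direction was the opposite, from 0.65 (0.51 to 0.77) in the lowest group to 1.36 (1.20 to 1.46) in the highest. No direction of the change with site strength can therefore be read from these pairs.

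The kept sites were also ordered by local background at day −2. In the 198 kept sites with the lowest day −2 background the median log2 ratio was 0.79 (0.69 to 0.86), and in the 198 with the highest it was 1.48 (1.39 to 1.59). The log2 ratio of fragments in the same groups was 0.98 and 0.87. The day −2 background is the denominator of the day −2 fold enrichment, so this order too shares a term with the ratio, and nothing is read from the climb. Both medians were above 0 in all 4 groups.

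**Figure D2:**
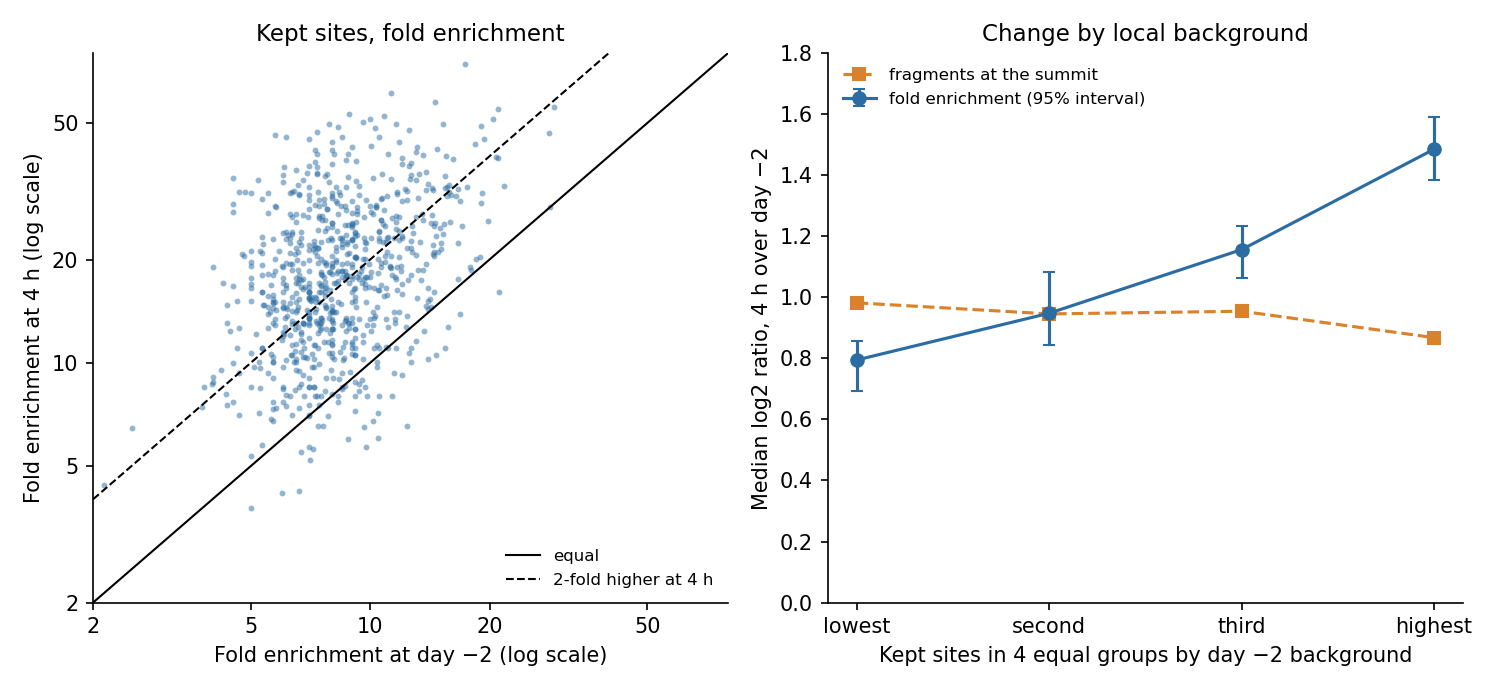
Fold enrichment of the 791 kept sites at day −2 (x axis, log scale) and 4 h (y axis, log scale), with lines of equality and of a 2-fold rise (left), and the median log2 ratio of fold enrichment, with 95% intervals, and of summit fragments, in 4 equal groups of kept sites by day −2 background (right). Most points, 742 of 791, lie above the line of equality, and the fold enrichment line climbs from 0.79 to 1.48 while the fragment line stays between 0.98 and 0.87.

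The 5 kept pairs with the highest lower −log10 p differed in their values. No test between them was run, and the 5 intervals of their fragment ratios overlap. The lower −log10 p was that of day −2 in all 5 pairs, so they were chosen on a value that enters the ratio. The site on chromosome 2 from 50542834 to 50543204 showed 28.4 at both times in fold enrichment, with 76 fragments at day −2 and 84 at 4 h, a ratio of 1.11 (exact interval 0.801 to 1.53). It held the highest −log10 p of the day −2 list, 95.9, and ranked 96 at 4 h. The site on chromosome 2 from 61133722 to 61134106 went from 29.0 to 55.5 in fold enrichment and from 61 to 89 fragments, a ratio of 1.46 (1.04 to 2.06). On chromosome 17, the site from 71649707 to 71650086 went from 28.2 to 46.6, with 55 and 92 fragments, a ratio of 1.67 (1.18 to 2.38). The intervals of these 2 fragment ratios lay above 1, but the fragment length differed between the times, so 1 need not stand for no change. The intervals of the other 2 sites included 1. These sites had 64 and 69 fragments on chromosome 5 from 20560208 to 20560563, and 62 and 72 on chromosome 7 from 138086772 to 138087139. Their fold enrichment nevertheless went from 21.7 to 32.7 and from 21.0 to 39.5, and their background fell from 3.20 times the genome background at both to 2.40 and 1.78 times.

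Among kept sites with a day −2 −log10 p of 10 or more, the 3 with the largest rise were among the strongest sites at 4 h. They were chosen by the size of their change, so their values are a description, and 6 weaker sites rose more than the last 2 of them. On chromosome 2 from 72204635 to 72204865, fold enrichment went from 5.76 to 46.3, fragments from 22 to 80, and the background from 4.80 to 1.58 times the genome background. On chromosome 15 from 93564708 to 93565005, fold enrichment went from 7.35 to 47.2 and fragments from 21 to 77. On chromosome 13 from 48289314 to 48289539, the values were 7.02 and 45.0, with 20 and 66 fragments. All 3 ranked 31 to 59 of the 4 h list, and in all 3 the background fell while fragments rose more than 3-fold.

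At the sites with the largest falls in fold enrichment, fragments fell little or rose. On chromosome 6 from 84303516 to 84303815, fold enrichment went from 12.4 to 6.53 while fragments went from 26 to 38. The background there went from 1.89 to 10.4 times the genome background. Since the genome background at 4 h was 0.476 fragments, the multiple of 10.4 stands for few background fragments. On chromosome 14 from 24452479 to 24452784, fold enrichment went from 10.5 to 6.02 with 16 and 17 fragments. On chromosome 3 from 52306172 to 52306456, it went from 9.78 to 5.68 with 18 and 16 fragments, a fragment ratio of 0.889 (0.424 to 1.85). These 3 sites were chosen by their fall in fold enrichment, which holds the same fragments. The fragment length also differed between the times, so a fragment ratio of 1 need not stand for no change. Whether fragments were lost at these sites was therefore not tested.

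Pairing by overlap limits how far apart the summits of a kept site can lie. Within that limit the distance between the day −2 and 4 h summits had a median of 14 bp, was at most 50 bp in 693 pairs (87.6%) and at most 100 bp in 769 (97.2%). Kept peaks had a median width of 260 bp at day −2 and 292 bp at 4 h. They were wider at 4 h in 529 pairs and narrower in 260, although the fragment length was shorter at 4 h.

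The 47 lost sites were weaker at the median than kept ones, although most weak day −2 peaks were kept. Their −log10 p had a median of 9.84, against 15.3 for kept sites. Under 10 there were 25 lost and 94 kept peaks. Their fold enrichment had a median of 6.28 against 8.01, and they had a median of 13 fragments against 18. Of the lost peaks, 16 (34.0%) had the narrowest width the list allows, and of the kept peaks 114 (14.4%) did. Lost sites were mostly not next to a 4 h peak. Their summits lay at a median of 35.6 kb from the nearest 4 h summit. Of them, 2 were within 1 kb, 10 within 5 kb, 13 within 10 kb and 15 over 100 kb away. The share of the genome that lies as near to a 4 h summit was not computed.

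Only 3 lost sites had a −log10 p of 20 or more. The strongest, on chromosome X from 136187865 to 136188152, stood at a fold enrichment of 13.6 from 21 fragments over the genome background, and the nearest 4 h summit was 103 kb away. The next, on chromosome 11 from 44092321 to 44092577, reached 11.3-fold enrichment from 20 fragments. Both were listed in P cells at day −2 and at 4 h, with fold enrichments of 8.97 and 17.1 for the first and 7.47 and 9.16 for the other. The site on chromosome 3 from 19326230 to 19326492 reached 10.0-fold enrichment from 24 fragments, lay 3.28 kb from a 4 h summit and was in neither P list. The 2 lost sites that follow in strength were on chromosome 1 from 173114462 to 173114766, at a 9.92-fold enrichment, and on chromosome 17 from 87573465 to 87573779, at 8.02. Both were listed in P cells at 4 h, at 16.3 and 27.1. Of these 5 sites, 4 were thus listed in P cells at 4 h, against 24 of all 47 lost sites (51.1%).

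**Figure D3:**
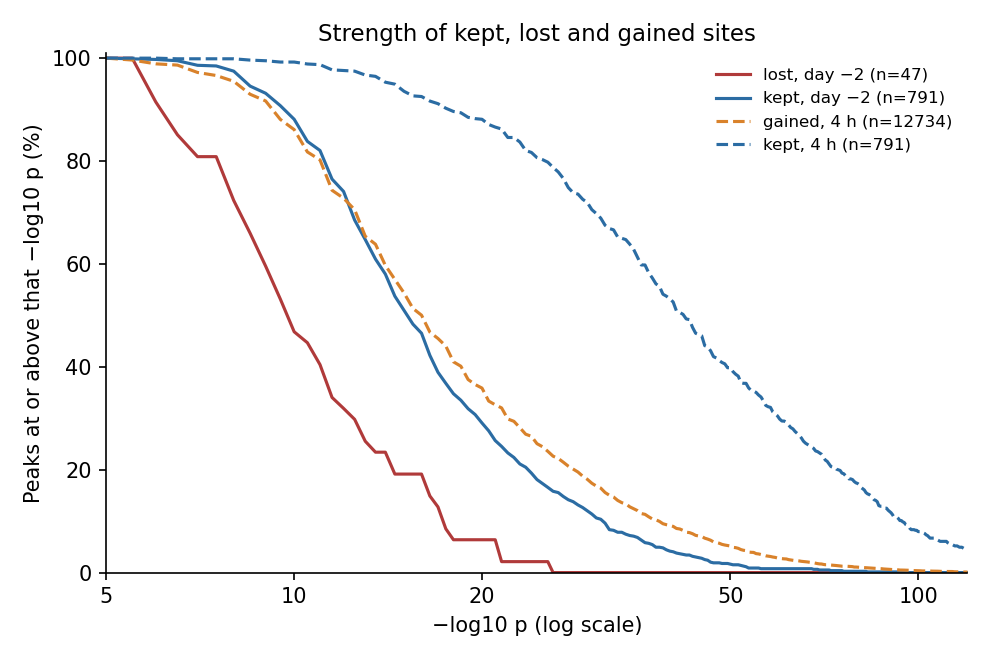
Percent of peaks (y axis) with at least the −log10 p on the x axis (log scale), for kept and lost sites at day −2 (solid) and for kept and gained sites at 4 h (dashed). Lost sites lie furthest left, kept day −2 sites and gained 4 h sites have close medians of 15.3 and 16.0 but part above them, with 1.64% and 5.17% at 50 or more, and kept sites at 4 h lie furthest right, with a median of 42.1.

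The gained sites made up nearly all of the 4 h list and had at the median about the strength that kept sites had held before induction. Their fold enrichment had a median of 8.91 (quartiles 7.02 and 12.1) and their −log10 p a median of 16.0. They had a median of 17 fragments, against 36 at kept sites at the same time, with the same median background of 2.09 times the genome background. The range was wide, with a −log10 p up to 173 and 658 gained peaks at 50 or more. Gained peaks were narrower than kept ones, with medians of 229 bp and 292 bp.

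A site absent from the day −2 list was not shown to be unbound then, since only peaks past the threshold are listed. The day −2 signal at gained sites is not in the lists, and only their 4 h fragments could be set against the day −2 threshold. With the background multiple a gained site had at 4 h, the −log10 p of 5 would have been reached at day −2 with a median of 8 fragments. The gained sites had at least 2 times their own required number at 4 h in 6968 cases (54.7%) and at least 4 times in 1332 (10.5%). Day −2 peaks had at least 2 times their own required number in 60.3% and at least 4 times in 6.44%. Gained sites had passed the same cut at 4 h, so nearly all had to clear a threshold of this kind. Their fragments were also counted at a length of 164 bp, and the threshold was that for 215 bp. These shares therefore do not show how near the gained sites were to the threshold at day −2. A day −2 peak also had to span 215 bp, and 5215 gained peaks (41.0%) were narrower than that. Among kept sites at 4 h the share was 8.60%. No gained peak that reached a −log10 p of 50 was that narrow (0 of 658, Wilson upper bound 0.580%).

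The 5 strongest gained sites had fold enrichments of 52.6 to 57.8, and the highest value of any kept site was 74.2. On chromosome 6 from 138088485 to 138088841, the fold enrichment was 54.4 with 105 fragments and a −log10 p of 173. This site lay 1341 bp from a day −2 summit. The others were on chromosome 11 from 5402395 to 5402738 (fold enrichment 52.6, 104 fragments), chromosome 2 from 79998830 to 79999389 (57.5, 95 fragments), and chromosome 10 from 92951045 to 92951615 (57.8, 88 fragments) and from 10168913 to 10169223 (57.6, 84 fragments). These 4 lay between 66.5 kb and 360 kb from the nearest day −2 summit. All 5 were in the 4 h list of P cells, with fold enrichments of 55.3 to 71.1, and 2 of them, on chromosomes 11 and 2, were in the day −2 list of P cells, at 6.05 and 7.31.

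The third question was whether gained sites arose beside the sites already bound. Most did not, although they lay nearer to them than the genome as a whole. The nearest day −2 summit was at a median of 677 kb (654 to 704), with quartiles of 190 kb and 1841 kb. Within 10 kb there were 356 gained peaks (2.80%, 2.52 to 3.10), and 0.608% of a 2.7e+09 bp genome lies that near a day −2 summit, a ratio of 4.59. The ratio was 5.99 at 2 kb (94 peaks), 2.88 at 100 kb (16.2% of gained peaks and 5.64% of the genome) and 1.55 at 1 Mb (60.1% and 38.7%). The genome share counts every base alike, whether or not reads can be mapped to it and whatever its gene density, and the part of these in the ratio was not tested.

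Nearness showed no steady trend with the strength of gained sites. The share within 10 kb was 3.66% (2.41 to 5.54) for a −log10 p of 5 to 8, 2.27% (1.86 to 2.78) from 10 to 15 and 3.95% (2.71 to 5.73) at 50 or more. Gained peaks within 10 kb had a median fold enrichment of 8.81, those from 10 kb to 100 kb 9.02 and those from 100 kb to 1 Mb 8.87, and the median of those further away lay between the last 2 values. Their presence in P cells at 4 h was 86.5%, 87.2% and 84.7% in these 3 groups and 84.9% beyond 1 Mb.

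**Figure D4:**
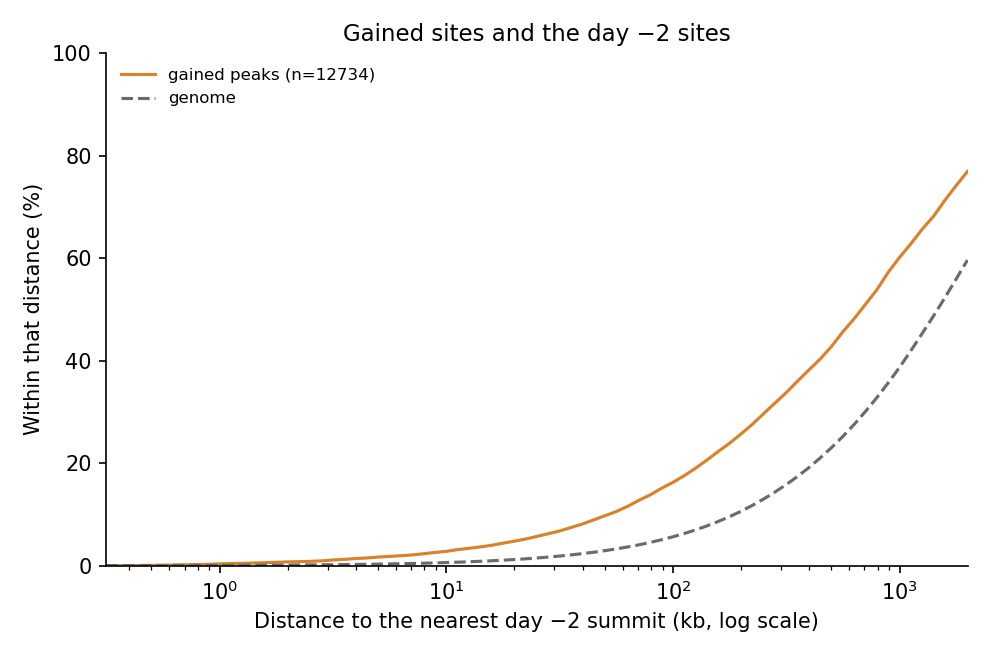
Percent of the 12734 gained peaks (solid) and of a 2.7e+09 bp genome (dashed) within a given distance of a day −2 summit (x axis, kb, log scale). From 0.5 kb upward the gained share is above the genome share at the distances given, with 2.80% against 0.608% at 10 kb and 60.1% against 38.7% at 1 Mb (1000 kb).

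The 3 gained sites nearest to a day −2 summit had fold enrichments of 5.51 to 10.0, around the median of all gained sites. On chromosome 10 from 87853729 to 87853892, a gained peak of 7.57-fold enrichment lay 373 bp from a day −2 summit. On chromosome 2 from 11386644 to 11386813 one with 5.51 lay 412 bp away, and on chromosome 2 from 117628983 to 117629198 one with 10.0 lay 418 bp away. None of the 3 was in the P list at day −2, and all 3 were in the P list at 4 h, at 30.8, 40.2 and 10.3. Strong sites far from any day −2 site were also gained. On chromosome X from 34344251 to 34344587, a gained peak of 23.0-fold enrichment lay 16.5 Mb from the nearest day −2 summit. On chromosome 7, gained peaks from 35826346 to 35826692 and from 35365947 to 35366218 had fold enrichments of 34.6 and 12.4 at distances of 15.4 Mb and 14.9 Mb. All 3 of these far sites were in the P list at 4 h, at 43.8, 65.0 and 19.6. The first 2 were also in the P list at day −2, at 12.0 and 21.6.

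Gained sites were about as dense around other gained sites as around kept ones. Within 50 kb there was a mean of 1.62 gained summits around kept day −2 sites, 1.58 around gained sites and 1.17 around lost sites. No gained summit was found within 50 kb of 249 kept sites (31.5%, 28.3 to 34.8), 4106 gained sites (32.2%, 31.4 to 33.1) and 20 lost sites (42.6%, 29.5 to 56.7). These intervals overlap. Among peaks that reached a −log10 p of 50 at 4 h, the means were 1.75 around kept and 1.85 around gained sites. The day −2 site with the most gained neighbours was a kept one on chromosome 11 from 86417267 to 86417560, with 12 gained summits within 50 kb, and its own fold enrichment went from 11.8 to 44.1. The gained peaks around it had fold enrichments of 3.61 to 13.6. The next 2 were on chromosome 2, from 148253335 to 148253562 with 11 gained neighbours and from 125144137 to 125144697 with 10, and their own fold enrichments went from 6.13 to 16.9 and from 6.35 to 10.5.

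The P libraries, which had no part in sorting the sites into classes, showed where else these sites were listed. Kept and gained sites were found in P cells at 4 h in most cases, and lost sites less often. Of kept day −2 peaks, 769 of 791 (97.2%, 95.8 to 98.2) overlapped a P peak at 4 h, of gained peaks 10848 of 12734 (85.2%, 84.6 to 85.8), and of lost peaks 24 of 47 (51.1%, 37.2 to 64.7). From the other side, the P list of 4 h held 26713 peaks, and 10773 of them (40.3%) overlapped a gained C peak. At day −2 the shares of the C classes in the P list were 64.2% for kept (60.8 to 67.5), 23.4% for lost (13.6 to 37.2) and 7.73% for gained sites (7.28 to 8.20). Kept and lost sites differ in strength, and strength goes with these shares. Among sites with a −log10 p under 15 at day −2, 190 of 388 kept (49.0%, 44.0 to 53.9) and 8 of 38 lost ones (21.1%, 11.1 to 36.3) were in the P list at day −2, and 374 (96.4%) and 18 (47.4%) were in that of 4 h. In 5 narrower classes of day −2 strength, lost sites had the lower share in each. For the day −2 list of P cells the intervals overlapped in all but the class from 15 to 20, where 118 of 173 kept (68.2%, 60.9 to 74.7) and 1 of 6 lost sites (16.7%, 3.01 to 56.4) were listed. For the 4 h list of P cells they did not overlap in any of the 5, from 19 of 20 kept (interval 76.4% to 99.1%) and 5 of 13 lost sites (38.5%, 17.7 to 64.5) at a −log10 p of 5 to 8 to 138 of 140 (98.6%, 94.9 to 99.6) and 2 of 3 (66.7%, 20.8 to 93.9) from 20 to 30.

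The more strongly a gained site was bound at 4 h, the more often P cells had it. In P cells at 4 h the share went from 68.6% for a −log10 p of 5 to 8, through 88.0% from 15 to 20, to 657 of 658 at 50 or more. In P cells at day −2 it went from 0.873% to 34.4% (170 of 494) from 50 to 75 and 54.3% (25 of 46) at 100 or more. The day −2 list of P cells held 1653 peaks. Of these, 508 (30.7%, 28.6 to 33.0) overlapped a kept C site and 985 (59.6%, 57.2 to 61.9) overlapped a site that C cells gained at 4 h. The gained sites listed in neither P list numbered 1881 (14.8%).

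**Figure D5:**
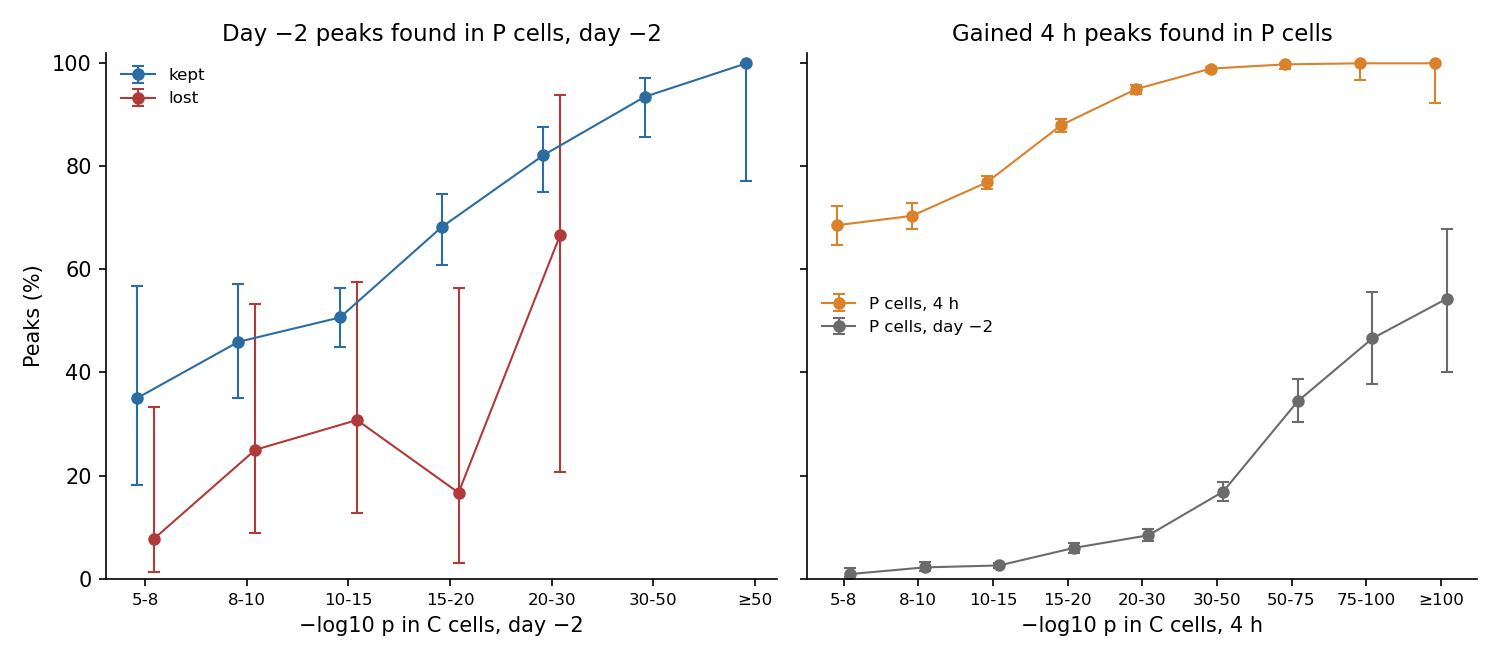
Percent of kept and lost day −2 peaks found in the P list of day −2 (left) and of gained 4 h peaks found in the P lists of 4 h and of day −2 (right), by −log10 p in C cells, with 95% Wilson intervals as bars. The shares climb with strength for kept and gained sites, the gained ones from 68.6% to 100% at 4 h and from 0.873% to 54.3% at day −2, and lost sites lie below kept ones in each class they share.

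Kept C sites that were also listed in P cells at day −2 had a higher median rise than the others. The median log2 ratio of fold enrichment was 1.15 (1.07 to 1.21) at the 508 sites in that list and 0.93 (0.81 to 1.04) at the 283 outside it. In fragments the medians were 0.95 and 0.86. Set beside the same comparison within P cells, C cells kept a smaller share of day −2 sites (94.4% against 98.7%, 98.0 to 99.1) and had a smaller median log2 ratio at them (1.07 against 1.29, 1.23 to 1.34). The share of kept sites that were higher at 4 h was 93.8% in C cells and 93.7% in P cells. Gained sites lay further from the day −2 sites in C cells, at a median of 677 kb against 313 kb, and the day −2 list of C cells was the shorter one. The 4 h list of C cells was also the shorter one, with 13525 peaks against 26713, and the kept share moves with list length. Fragment length shortened between the C libraries from 215 bp to 164 bp, and its part in these differences was not tested.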

How the data were processed

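C/EBPβ ChIP and input libraries of C cells at day −2 and 4 h were compared, with 1 library of each kind per time. The corresponding P lists were used as a look-up, and the same comparison was also made within P cells. Samples were grouped by their labels. The hour written into the peak names was 0 for day −2 and 5 for 4 h, and the label, 4 h, was used. The authors aligned reads to mm9 with Bowtie 0.12.8, used SAMtools 1.3.1, equalised mapped reads and called peaks against input with MACS2 2.0.10.20131028 (names and versions from the submitters' processing notes). Lists were called per library. The deposited fold enrichment is a ratio of ChIP to local background at the summit. The deposited −log10 p is a p-value of that peak in that library, with a stated cut whose −log10 is 5. Sites under that cut are missing, so list length moves with signal.

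Each day −2 peak was paired with the overlapping 4 h peak of highest −log10 p. Fragments and background were recovered from both values as the Poisson solution that matches −log10 p within 0.0003. Every C peak had one, and 11 peaks at 4 h had a further one, of which the closer was taken. The recovery and the overlap calls were tested on simulated data. Shares have Wilson intervals, ratios exact Clopper-Pearson intervals and medians order-statistic intervals. Distances are between summits, and the genome size was 2.7e+09 bp. The fragments required at day −2 were computed from the Poisson threshold at the background multiple of 4 h. Software was Python 3.11.15, pandas 2.3.3, numpy 2.4.6, scipy 1.17.1, statsmodels 0.14.6 and matplotlib 3.10.9.

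Regions were named by rule. They are the 5 kept pairs with the highest lower −log10 p, the 3 largest and 3 smallest changes among kept pairs with a −log10 p of 10 or more at day −2, the 5 strongest lost and gained peaks, the 3 nearest gained peaks and the 3 farthest at a −log10 p of 30 or more, and the 3 day −2 peaks with most gained neighbours. The peaks at the edges of the overlap rule, those with more than 1 partner and the lost site counts were added after their values were seen. The members and lists were chosen with earlier results of these data known. Coordinates are mm9, counted from 1. Gene names and sequences were not used here, since no mm9 annotation was used. Alternatives were stricter strength and overlap rules, equal list sizes, a minimum width, other measures of strength and other distances.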

Additional observations from a re-analysis of the deposited data

How the results depend on the processing

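Each of the 8 results of the comparison was recomputed under the alternatives that fit it, 13 in all. Of 74 values, 40 stayed within the 95% interval (counts within 1.5 times), 34 moved and 0 changed direction. The cause of each move was not tested, except that fewer peaks entered by construction under the stricter rules. At a −log10 p of 10 or more, 96.5% of day −2 peaks were kept, 25 were lost, and gained peaks lay at a median of 839 kb with 2.31% within 10 kb. With a fold enrichment of at least 5 that median was 731 kb. With a reciprocal overlap of 50%, 86.5% were kept, 113 lost, 5.36% of 4 h peaks had a partner and 3.30% of gained peaks lay within 10 kb. With summits within 100 bp 91.9% were kept. With 4 h peaks at least as wide as the narrowest day −2 peak, 86.4% were kept, 114 lost and 7519 gained, 8.77% of 4 h peaks had a partner, the median log2 ratio was 1.15, 95.3% of pairs were higher and the distance was 640 kb. With the lists cut to equal size, 34.8% were kept, 546 lost and 547 gained, 34.7% of 4 h peaks had a partner, the log2 ratio was 1.54, 99.7% were higher, and gained peaks lay at 609 kb with 3.84% within 10 kb. The log2 ratio was 1.42 in −log10 p, with 95.6% of pairs higher, and 0.93 in fragments. Added after seeing the data, fragments over background with nothing added gave 1.26, with 91.2% higher. Also added then, leaving out peaks whose background reached 5 times that of the genome gave 89.2% kept and 88 lost. It also gave 95.3% of pairs higher and a distance of 709 kb. That multiple stands for fewer background fragments at 4 h than at day −2, so the cut was not equal between the lists. No paired analysis was possible because each condition had 1 library. The smallest number of fragments under a called peak was 7 at both times, and no alternative varied the depth.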

Other observations

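The ratio of peak numbers, 4 h over day −2, was 12.5 on chromosome 19 (exact interval 9.07 to 17.7, from 40 and 501 peaks) and 24.1 on chromosome 7 (15.9 to 38.4, from 23 and 555 peaks), the lowest and highest of the 20 chromosomes. These intervals overlap, and no test over all chromosomes was run. Over the 5 chromosomes with the lowest ratios (19, 5, 11, 2 and 17), the ratio was 13.3 (11.8 to 15.1), and kept sites had a median log2 ratio of fold enrichment of 1.20 (1.06 to 1.30, 268 pairs). Over the 5 with the highest ratios, it was 22.6 (18.5 to 28.0), and the median log2 ratio was 0.84 (0.70 to 0.95, 90 pairs). In fragments the medians of these groups of 5 were 0.97 and 0.82, and the day −2 background of their kept sites was 2.06 and 1.60 times the genome background. The 10 chromosomes between did not follow one order, and chromosomes 14 and 3, with ratios of 16.6 and 14.3, had median log2 ratios of 0.84 and 0.85. The groups of 5 were chosen by the ratio after its values were seen, so their separation in it follows from the choice, and the part of the background in the pattern was not tested.

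A background of at least 5 times that of the genome was found at few sites. It was reached at 22 kept sites at day −2 (2.78%), 49 at 4 h (6.19%), 387 gained sites (3.04%) and 0 of 47 lost sites. The genome background was 0.623 fragments at day −2 and 0.476 at 4 h, so the cut stands for fewer fragments at 4 h. Shares at day −2 and at 4 h are therefore not alike. The highest multiple at a lost site was 4.80, just under the cut. There were 8 peaks at 4 h and 0 at day −2 outside chromosomes 1 to 19 and X.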
